A study of Homo sapiens with 6 samples.

Results

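The 10 genes followed here mark or drive the epithelial-mesenchymal transition (EMT), and they were measured in HEY, an established ovarian cancer cell line of human origin, after an siRNA against CCNL2. They comprise the cadherin genes CDH1 and CDH2, the transcription factor genes SNAI1, SNAI2, ZEB1, ZEB2, TWIST1 and TWIST2, the intermediate filament gene VIM and the fibronectin gene FN1. They were chosen by gene name, each name used once, and all 10 were found among 60835 distinct names, of which 15346 passed the filter on low counts. Of the 10, all but CDH1 passed it too (9 of 10). RNA was sequenced from 3 libraries of cells with the CCNL2 siRNA (siCCNL2) and 3 of cells with a control siRNA (siNC). The labels give a time of 48 h. Their treatment text names an siRNA against CCNL2 for all 6 libraries, the controls included, so the groups were taken from titles and genotype labels, which give siNC for the controls. All libraries come from 1 line. The sources used here do not say whether the libraries of a group were grown separately, so the p-values reflect library-to-library spread that may be technical.

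In an EMT, epithelial cells lose the junctions built on E-cadherin, gain N-cadherin and vimentin, and deposit fibronectin. The SNAI and ZEB zinc finger proteins bind E-box sequences in the CDH1 promoter and repress it, and the TWIST proteins are basic helix-loop-helix factors that act on the same switch. Ovarian carcinoma lines are known to range from epithelial to mesenchymal in the expression of these genes.

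Total counts ran from 13596286 to 18095529 per library, and the 10 genes took 0.28% to 0.294% of them. The target CCNL2, which encodes cyclin L2, stood at 203, 182 and 186 CPM (counts scaled to 1000000 per library) in siCCNL2 and at 261, 267 and 246 CPM in siNC. The groups did not overlap (log2 fold change -0.44, SE 0.044, edgeR quasi-likelihood adjusted p = 2.15e-08). CCNL2 fell by 26.4%, so most of its RNA remained in siCCNL2. Of 8 ovarian carcinoma markers, 7 passed the count filter and 5 of these were called lower, as were 16.5% of all tested genes. The 8 summed to 1650 to 1802 CPM in siCCNL2 and 2165 to 2239 CPM in siNC. WT1 averaged 6.33 CPM in siCCNL2 and 8.64 CPM in siNC, and MSLN 1.56 CPM and 1.88 CPM. PAX8, KRT7, KRT8 and KRT18 had at least 112 CPM in every library, while MUC16 had at most 0.522 CPM in any library and EPCAM averaged 2.72 ± 0.233 CPM in siCCNL2 and 1.84 ± 0.432 CPM in siNC (SD, n = 3 each). None of 6 leukocyte markers passed the filter (0.373 to 1.32 CPM summed in siCCNL2 and 0.695 to 1.76 CPM in siNC, with CD68 at 0). In bulk RNA, fewer cells of a kind and less RNA per cell cannot be told apart.

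On the deposited TPM-like score, the 10 genes spanned more than 4 orders of magnitude. The score divides counts by a length per gene that is not its coordinate span. VIM was highest at 1642 to 1778 over the 6 libraries, followed by FN1 at 321 to 356 and CDH2 at 97.3 to 113. ZEB1 (58.7 to 72.7) and TWIST2 (57.6 to 65.2) overlapped each other, SNAI2 lay at 27.7 to 34, and TWIST1 (13.7 to 23.3) and ZEB2 (14.4 to 15.4) overlapped. SNAI1 lay at 3.39 to 5.46 and CDH1 at 0.038 to 0.107. Other neighbours in this order did not overlap. Mean scores of VIM, FN1, CDH2 and ZEB1 exceeded those of 99.6%, 97.2%, 88.7% and 81.9% of all tested genes. In both groups, the cells had much VIM and FN1 and almost no CDH1.

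**Figure D1:**
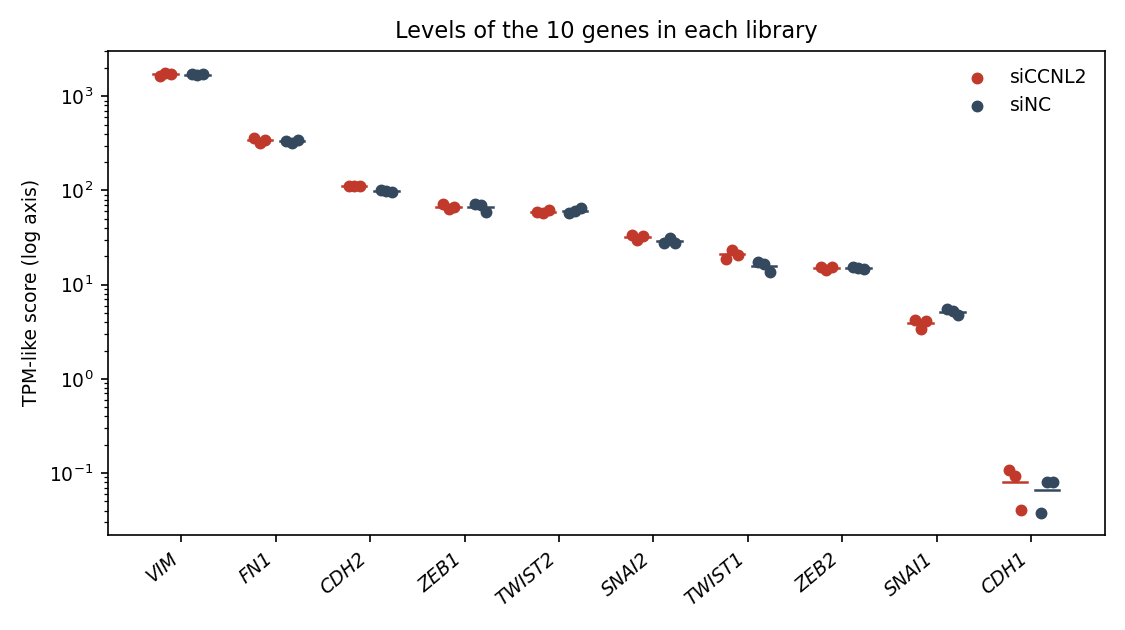
Deposited TPM-like score (log axis) of each of the 10 genes in each of the 3 siCCNL2 libraries (red) and 3 siNC libraries (dark), with a bar at each group's mean, ordered by level. VIM lies at 1642 to 1778 and CDH1 at 0.038 to 0.107, and the groups separate for CDH2, TWIST1 and SNAI1.

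Of the 9 tested genes, 2 were higher in siCCNL2 at an adjusted p under 0.05, CDH2 and TWIST1, and 0 were lower (3 of 9 had an unadjusted p under 0.05). Among all tested genes 33.6% were called, 17.2% higher and 16.5% lower. The adjustment runs over all 15346 tested genes. For 3 of 9 genes the siCCNL2 and siNC libraries had no overlap in CPM, 2 above and 1 below siNC, against 43.9% of all tested genes, 22.1% above and 21.8% below. The median log2 fold change was 0.02 for the 9 genes and 0.0023 for all tested genes. The median of its absolute value was 0.045 for the 9 genes and 0.19 for all tested genes, which describes these genes without testing them as a group.

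CDH2, which encodes N-cadherin, the adhesion protein of mesenchymal and neural cells, had 145, 152 and 147 CPM in siCCNL2 and 130, 127 and 128 CPM in siNC. All 3 siCCNL2 libraries lay above all 3 siNC libraries. CDH2 rose by 15.4% (log2 fold change 0.21, SE 0.041, edgeR quasi-likelihood adjusted p = 3.53e-04). A two-sided exact permutation test gave p = 0.1, the lowest value possible with 3 against 3 libraries. CDH2 spans 27932879 to 28177946 of chromosome 18 (GRCh38, minus strand). Against a fold of at least 1.2 the rise was not called (adjusted p = 1 by edgeR's glmTreat). The first of 2 promoter windows given by RefSeq for this gene (GRCh38.p14, minus strand, chr18:28177081-28177380, 250 bases before to 50 after the start) is printed because CDH2 was one of the called genes. It was searched for CAGGTG on either strand, the E-box to which SNAI and ZEB factors bind, and held no match.
CDH2: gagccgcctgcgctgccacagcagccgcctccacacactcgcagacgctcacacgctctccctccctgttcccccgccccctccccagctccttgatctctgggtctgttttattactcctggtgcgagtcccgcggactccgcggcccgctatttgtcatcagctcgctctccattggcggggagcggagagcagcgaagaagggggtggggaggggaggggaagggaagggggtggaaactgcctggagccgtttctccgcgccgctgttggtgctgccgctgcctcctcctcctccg

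CDH1, which encodes E-cadherin, the defining adhesion protein of epithelia, had 3, 2 and 1 counts in siCCNL2 libraries and 1, 2 and 2 counts in siNC libraries. The sums were 6 counts in siCCNL2 and 5 in siNC, and each library lay at or under a floor of 3 counts (0.166 to 0.221 CPM). A difference in CDH1 was not detectable at this depth, and no fold is given. The gene spans 68737292 to 68835537 on the plus strand of chromosome 16.

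TWIST1, a helix-loop-helix factor of mesoderm and neural crest, had 9.87, 12.8 and 10.9 CPM in siCCNL2 and 9.27, 8.66 and 7.34 CPM in siNC. The groups did not overlap, though siCCNL2 replicate 1 lay only slightly above siNC replicate 1. TWIST1 rose by 32.8% (log2 fold change 0.40, SE 0.129, edgeR quasi-likelihood adjusted p = 0.0197; exact two-sided permutation p = 0.1). The call was lost without siCCNL2 replicate 2 (log2 fold change 0.30, adjusted p = 0.107), without siNC replicate 3 (0.31, adjusted p = 0.103) and against a fold of at least 1.2 (adjusted p = 0.308 by edgeR's glmTreat). Its paralogue TWIST2 had 25.2, 25.9 and 26.9 CPM in siCCNL2 and 25.3, 26.1 and 28.7 CPM in siNC, with overlapping groups. The log2 fold change of TWIST2 was -0.04 with a 95% interval of -0.20 to 0.12 (adjusted p = 0.748). TWIST1 is on chromosome 7 (19020991 to 19117636, minus strand) and TWIST2 on chromosome 2 (238848032 to 238910534, plus strand).

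SNAI1, the zinc finger repressor Snail, was the least abundant of the transcription factors, with 42, 26 and 36 counts in siCCNL2 libraries and 51, 46 and 42 in siNC libraries. In CPM it stood at 2.3, 1.94 and 2.29 in siCCNL2 and at 3.01, 2.91 and 2.64 in siNC. Every siCCNL2 library was lower than every siNC library, but the difference did not pass the test (log2 fold change -0.38, SE 0.23, 95% interval -0.86 to 0.09, adjusted p = 0.219). SNAI2, its paralogue Slug, had 30.8, 28.5 and 30.7 CPM in siCCNL2 and 25.6, 28.5 and 25.7 CPM in siNC. The groups of SNAI2 overlapped at siCCNL2 replicate 2 and siNC replicate 2. Its log2 fold change was 0.18 (SE 0.074, 95% interval 0.02 to 0.33), with an adjusted p of 0.07 and an unadjusted p of 0.0255. SNAI2 was called when siCCNL2 replicate 2 was left out (0.21, adjusted p = 0.0498) and without siNC replicate 2 (0.23, adjusted p = 0.0398). SNAI1 lies on chromosome 20 at 49982980 to 49988886, and SNAI2 on chromosome 8 at 48917598 to 48921740.

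ZEB1, a zinc finger and homeobox repressor of epithelial genes, had 143, 133 and 136 CPM in siCCNL2 and 147, 140 and 120 CPM in siNC. The siCCNL2 libraries lay within the range of the siNC libraries. ZEB2 had 46.9, 46.2 and 47.9 CPM in siCCNL2 and 47.7, 46.6 and 46.2 CPM in siNC, again overlapping. The 95% intervals of the log2 fold change were -0.10 to 0.13 for ZEB1 (estimate 0.016, adjusted p = 0.856) and -0.11 to 0.12 for ZEB2 (estimate 0.0061, adjusted p = 0.947). These intervals hold neither a doubling nor a halving of either gene, within the spread of these libraries. ZEB1 lies on chromosome 10 at 31318495 to 31529814 and ZEB2 on chromosome 2 at 144364364 to 144521057.

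RefSeq windows were found for 6 of the 10 genes (CDH2, VIM, ZEB1, ZEB2, TWIST2 and FN1), 13 in all. CDH1 and TWIST1 were among the genes without a window, so their promoters were not searched. Of the 13, 7 are of ZEB1 and lie close together (31318167 to 31321709 of chromosome 10), so the windows are not independent. CAGGTG on either strand was found in 2 of the 13, or 15.4%. The share was 20.6% of all 35116 windows of the same length and 18.3% of the 15690 windows of tested genes. Both windows with a match are among the 7 of ZEB1. One of them (GRCh38.p14, plus strand, chr10:31318966-31319265) is printed because it holds 3 matches, more than any other of the 13. They start at -242, -85 and 34 relative to the start site, the first of them in the reverse orientation as CACCTG, and are given in capitals. A match describes these letters and is not a binding site.
ZEB1: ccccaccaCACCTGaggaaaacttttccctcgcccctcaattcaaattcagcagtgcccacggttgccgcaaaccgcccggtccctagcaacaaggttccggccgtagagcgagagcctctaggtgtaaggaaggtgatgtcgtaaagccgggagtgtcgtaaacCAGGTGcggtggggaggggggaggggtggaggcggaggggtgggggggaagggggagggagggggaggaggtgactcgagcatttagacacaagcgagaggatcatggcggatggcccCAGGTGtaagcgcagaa

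VIM, the intermediate filament protein of mesenchymal cells, had 1404, 1592 and 1490 CPM in siCCNL2 and 1483, 1449 and 1494 CPM in siNC. The siCCNL2 libraries spread more widely (SD 94 CPM) than the siNC libraries (SD 23.2 CPM) and included both the highest and the lowest value. The log2 fold change was 0.019 with a 95% interval of -0.06 to 0.09 (adjusted p = 0.734). FN1, the matrix glycoprotein bound by several integrins, had 1048, 989 and 1033 CPM in siCCNL2 and 985, 956 and 1034 CPM in siNC, with overlapping groups. Its log2 fold change was 0.045 with a 95% interval of -0.03 to 0.12 (adjusted p = 0.336). Both genes were deeply counted, with 13259 counts or more in every library. VIM lies on chromosome 10 at 17228241 to 17237593 and FN1 on chromosome 2 at 215360440 to 215436073.

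**Figure D2:**
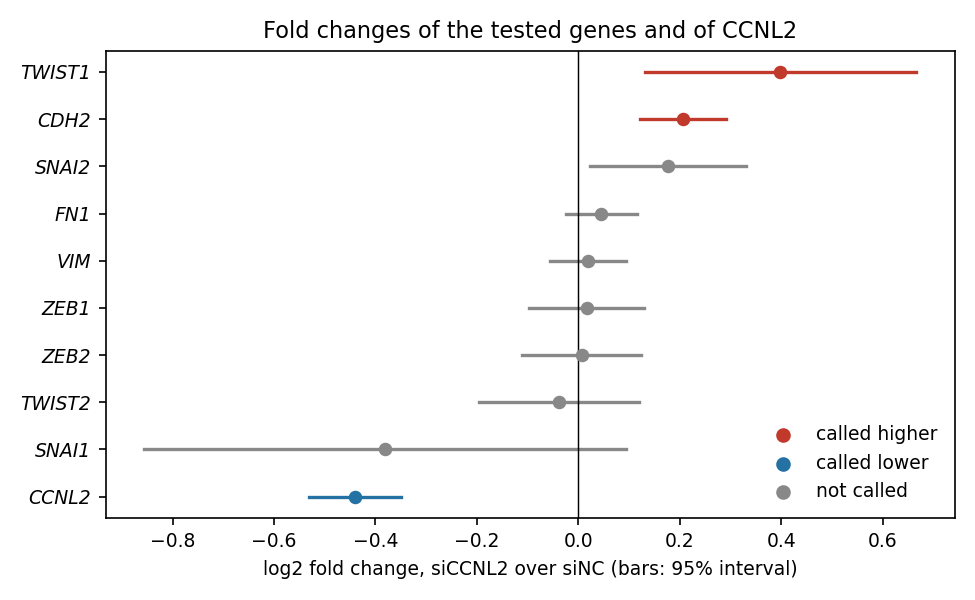
Log2 fold change of siCCNL2 over siNC (x axis) with its 95% interval for the 9 tested genes and CCNL2, coloured by call at an adjusted p under 0.05. TWIST1 (0.40) and CDH2 (0.21) were called higher and CCNL2 (-0.44) lower, and the intervals of VIM, FN1, ZEB1 and ZEB2 are narrow and include 0.

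Within a library, the ratio of a pair of paralogues does not depend on the scaling of that library. The ratio of TWIST1 to TWIST2 scores was 0.323, 0.405 and 0.335 in siCCNL2 and 0.302, 0.273 and 0.21 in siNC. The ratio of SNAI2 to SNAI1 scores was 8.07, 8.86 and 8.07 in siCCNL2 and 5.12, 5.91 and 5.89 in siNC. In both pairs all siCCNL2 libraries lay above all siNC libraries, by 0.44 and 0.57 on the log2 scale. The ratio of ZEB1 to ZEB2 averaged 4.48 ± 0.164 in siCCNL2 and 4.45 ± 0.396 in siNC (SD, n = 3 each), and its groups overlapped. Over these 3 ratios the exact two-sided permutation p was 0.1, 0.1 and 0.9 for TWIST, SNAI and ZEB (0.15, 0.15 and 0.9 after Benjamini-Hochberg adjustment), where 0.1 is the smallest this design allows.

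**Figure D3:**
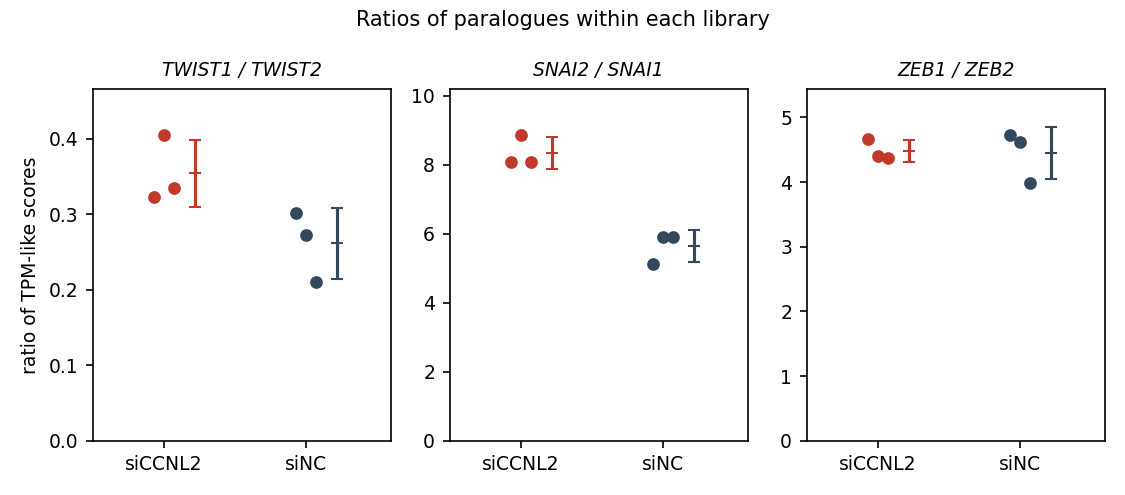
Ratio of the TPM-like scores of TWIST1 to TWIST2, SNAI2 to SNAI1 and ZEB1 to ZEB2 in each library, with siCCNL2 left of siNC and the mean ± SD beside the 3 points. The groups separate for the TWIST and SNAI pairs, where SNAI2 to SNAI1 lies at 8.07 to 8.86 in siCCNL2 and 5.12 to 5.91 in siNC, and overlap for the ZEB pair.

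Several members overlap other genes in the deposited coordinates, and whether counting used strand is not given in the sources used here. VIM overlaps VIM-AS1 on the opposite strand over 1778 bases (5.23 CPM in siCCNL2 and 4.34 CPM in siNC), and ZEB1 overlaps ZEB1-AS1 over 1953 bases (3.95 CPM in siCCNL2 and 2.94 CPM in siNC). Neither antisense gene was called (adjusted p = 0.279 and 0.137 by edgeR's quasi-likelihood test). The other overlapping genes with counts summed to at most 44 counts over the 6 libraries: AC110015.1 and AC006249.1 at CDH2, SPTLC1P1 at ZEB1, AC009951.1, AC009951.2 and ZEB2-AS1 at ZEB2, and AC003986.2 at TWIST1.

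The genes whose mean-centred log2 CPM lay nearest to CDH2 over the 6 libraries were IFIT5 (Euclidean distance 0.027), FEZ2 (0.031) and PSMD1 (0.032), with log2 fold changes of 0.21, 0.21 and 0.22. Nearest to TWIST1 were ENTPD1-AS1 (0.085), STPG1 (0.108) and ZBTB8A (0.115), with 0.40, 0.37 and 0.44. ENTPD1-AS1 was low (1.58 CPM in siCCNL2 and 1.19 CPM in siNC) and not called (edgeR quasi-likelihood adjusted p = 0.356). ZBTB8A lost its call in 7 of 18 alternatives and STPG1 in 3 of 18. For the members that were not called, the nearest were UQCRFS1, CFL1 and TUBGCP3 for VIM and MSI2, POLR3F and SF3B5 for FN1. For SNAI1 they were DDX60L, YPEL5 and FBXW8. Nearest to SNAI2 were POLE, CCDC93 and BCL6, to ZEB1 SMC3, PHIP and TOP2A, to ZEB2 PRPS2, MAGI1 and AHCYL1, and to TWIST2 ACVR1, ATXN1L and SMIM7, all at distances of 0.026 (MSI2) to 0.064 (FBXW8). These distances are descriptions over 6 libraries of 2 groups.

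Genes that act with the members were followed in 8 lists of 173 genes, of which 119 passed the count filter. Of these, 29 rose, 39 fell and 51 were not called, with a median log2 fold change of -0.07 against 0.0023 for all tested genes. The share called was 57.1%, against 33.6% of all tested genes (17.2% higher and 16.5% lower). The lists were not tested as sets and were chosen with earlier results of these data known, so these shares only describe the listed genes.

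Other transcription factors linked to EMT rose in 4 and fell in 5 of 18 tested genes (median -0.13). TCF3, whose E2A proteins are helix-loop-helix partners of TWIST1 and themselves bind E-boxes, had 115, 108 and 114 CPM in siCCNL2 and 59, 62.7 and 57.4 CPM in siNC. Its log2 fold change of 0.91 (SE 0.051, edgeR quasi-likelihood adjusted p = 9.23e-13) was the largest on this list. FOXC1, a forkhead factor, rose by 0.38 and the proliferation-linked FOXM1 by 0.28. FOXC1 lost its call without siCCNL2 replicate 3 (adjusted p = 0.0529). The chromatin protein gene HMGA2 fell to 382 ± 4.25 CPM in siCCNL2, against 534 ± 5.05 CPM in siNC (-0.48, SD, n = 3 each), and overlaps its antisense gene HMGA2-AS1, also called lower (-0.26), over 30828 bases. Another gene on the opposite strand, RPSAP52, overlaps HMGA2 over 2538 bases and was called higher (0.40, 11.2 CPM in siCCNL2 and 8.54 CPM in siNC). The RPSAP52 call was lost without siCCNL2 replicate 1 or 3 or siNC replicate 2 or 3 (adjusted p 0.0545 to 0.157). The AP-1 subunit gene FOSL1 fell by 0.33. BHLHE41 fell by 0.66 at 2.4 ± 0.0854 CPM in siCCNL2 and 3.81 ± 0.729 CPM in siNC, and was not called when siCCNL2 replicate 2 (adjusted p = 0.0504), siNC replicate 1 (0.0869) or siNC replicate 3 (0.0884) was left out.

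Of 16 epithelial transcription factors and splicing regulators, 8 passed the count filter, 1 rose and 1 fell (median 0.12). KLF5 rose by 0.23 (37.9 ± 0.539 CPM in siCCNL2 and 32.4 ± 1.46 CPM in siNC). GRHL1, a grainyhead factor, fell by 0.90 at 0.997 ± 0.181 CPM in siCCNL2 and 1.89 ± 0.589 CPM in siNC. The GRHL1 call was lost without siCCNL2 replicate 2 (adjusted p = 0.0995), siCCNL2 replicate 3 (0.121) or siNC replicate 3 (0.237), by the DESeq2 Wald test (0.0771) and in limma on log2(score + 1) (-0.40, adjusted p = 0.0758). The other 6 were not called.

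Among cadherins and catenins, 8 of 24 genes passed the filter, 1 rose and 2 fell. CDH5, which encodes VE-cadherin, known from endothelial junctions, had 43.9, 44.6 and 53.3 CPM in siCCNL2 and 117, 111 and 115 CPM in siNC. The groups lay far apart (log2 fold change -1.28, SE 0.061, adjusted p = 5.48e-14), the opposite direction to CDH2. CDH5 also made up most of a list of 5 endothelial markers that summed to 45.5 to 55.5 CPM in siCCNL2 and 115 to 120 CPM in siNC. The other endothelial markers were low: PECAM1 had 0.915 ± 0.307 CPM in siCCNL2 and 2.38 ± 0.361 CPM in siNC (called lower, adjusted p = 0.00126), VWF and KDR had at most 1.34 CPM in any library, and EMCN at most 0.127 CPM. CDH4, R-cadherin, rose by 0.27 (97.9 ± 2.5 CPM in siCCNL2 and 81 ± 3.78 CPM in siNC). CTNNB1, which encodes beta-catenin and links cadherins to actin, fell by 0.16 (651 ± 9.43 CPM in siCCNL2 and 730 ± 24.3 CPM in siNC). The other 5 tested genes of this list were not called.

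Intermediate filament genes and their linkers moved both ways, with 6 higher and 6 lower of 17 tested (median -0.24). Synemin (SYNM, 0.84) and nestin (NES, 0.66), which assemble with vimentin, rose, as did the lamin gene LMNB2 (0.47). NES had 21.8, 23.9 and 23 CPM in siCCNL2 and 13.1, 14.3 and 15.9 CPM in siNC. Keratin KRT7 fell to 498 ± 16.2 CPM in siCCNL2, against 748 ± 6.33 CPM in siNC (-0.59), and overlaps its antisense gene KRT7-AS, also called lower, over 2401 bases. The hair keratin KRT81 fell by 1.34. It shares sequence with other hair keratins, and whether their reads entered its counts was not tested. KRT17 was called lower (-1.53), but its counts were 28, 2 and 2 in siCCNL2 libraries and 31, 31 and 31 in siNC libraries, so that siCCNL2 replicate 1 stood close to the controls. Without that library its log2 fold change was -3.72, and the call was lost without siCCNL2 replicate 2 (adjusted p = 0.0832), siCCNL2 replicate 3 (0.123) or siNC replicate 2 (0.064) and by the DESeq2 Wald test (0.254).

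Epithelial junction and surface genes rose in 3 and fell in 4 of 14 tested genes (median -0.04). AP1M2, a subunit of an epithelial sorting adaptor, had 31.2, 36.9 and 28.9 CPM in siCCNL2 and 13.8, 14.8 and 12 CPM in siNC (log2 fold change 1.25, SE 0.098, adjusted p = 3.74e-10). The plakophilin gene PKP3 rose by 0.31. The tight junction genes CGN (-0.44) and F11R (-0.39) fell, as did the desmocollin gene DSC2 (-0.21), whose groups overlapped. PKP3 was lost without siCCNL2 replicate 1, siNC replicate 1 or siNC replicate 3 (adjusted p 0.0807 to 0.145). DSC2 was lost without any 1 of siCCNL2 replicates 2 and 3 and siNC replicates 1 and 3 (0.0703 to 0.243). Both were also lost by the DESeq2 Wald test (PKP3 0.0664, DSC2 0.0769) and in limma on log2(score + 1) (PKP3 0.112, DSC2 0.223).

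Mesenchymal genes other than the members fell in 11 and rose in 2 of 18 tested genes (72.2% called, median log2 fold change -0.32). Of all tested genes, 33.6% were called, 17.2% higher and 16.5% lower. The BMP antagonist gene GREM1 (-1.29, or -0.67 on the log2(score + 1) scale), the receptor gene PDGFRB (-0.71) and the collagen gene COL5A1 (-0.63) fell most. COL5A1 had 22.2, 22.4 and 21 CPM in siCCNL2 and 36, 33.4 and 32.4 CPM in siNC. The proteoglycan gene VCAN (0.87) and the matrix gene TNC (0.13) rose. VCAN had 60.3, 53.8 and 57.8 CPM in siCCNL2 and 36.7, 31.1 and 26.2 CPM in siNC. Fibroblast markers were low (11.3 to 14.3 CPM summed over 6 genes in siCCNL2 and 19 to 20.4 CPM in siNC, with DCN at 0), and those called lower, COL1A1 and FAP, also stand on the mesenchymal list.

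Genes for SNAI1 protein turnover and corepressors all passed the filter, and 8 rose and 2 fell of 21 (median 0.06). Against a fold of at least 1.2, 0 of the 21 were called, and limma on log2(score + 1) called 6. The kinase genes PRKD1 (0.39) and LATS2 (0.33) and the deacetylase gene HDAC1 (0.33) rose most. HDAC1 had 157, 156 and 162 CPM in siCCNL2 and 121, 126 and 131 CPM in siNC. PRKD1 was lost without siNC replicate 1 (adjusted p = 0.0647). RCOR1, a CoREST corepressor subunit, fell by 0.25 and the ubiquitin ligase gene FBXL5 by 0.18. FBXL5 was lost without any 1 of siCCNL2 replicates 2 and 3 and siNC replicates 1 and 2 (adjusted p 0.07 to 0.13), by the DESeq2 Wald test (0.065) and in limma on log2(score + 1) (0.0564).

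FN1 itself was not called, while 12 of 15 tested fibronectin receptors and assembly partners were (80%), 4 higher and 8 lower (median -0.24). The shares over all tested genes were 33.6% called, 17.2% higher and 16.5% lower. ITGA3, an integrin alpha chain, fell to 1213 ± 33 CPM in siCCNL2, against 1960 ± 18.2 CPM in siNC (log2 fold change -0.69, SE 0.030, adjusted p = 1.07e-14, SD, n = 3 each). The integrin gene ITGB3 (-0.72) and the focal adhesion gene TNS1 (-0.75) also fell. The heparan sulfate proteoglycan genes SDC4 (0.88) and SDC1 (0.61) rose, as did LTBP1 (0.97), a matrix protein that binds latent TGF-beta and fibronectin. SDC4 had 188, 206 and 203 CPM in siCCNL2 and 109, 106 and 109 CPM in siNC.

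**Figure D4:**
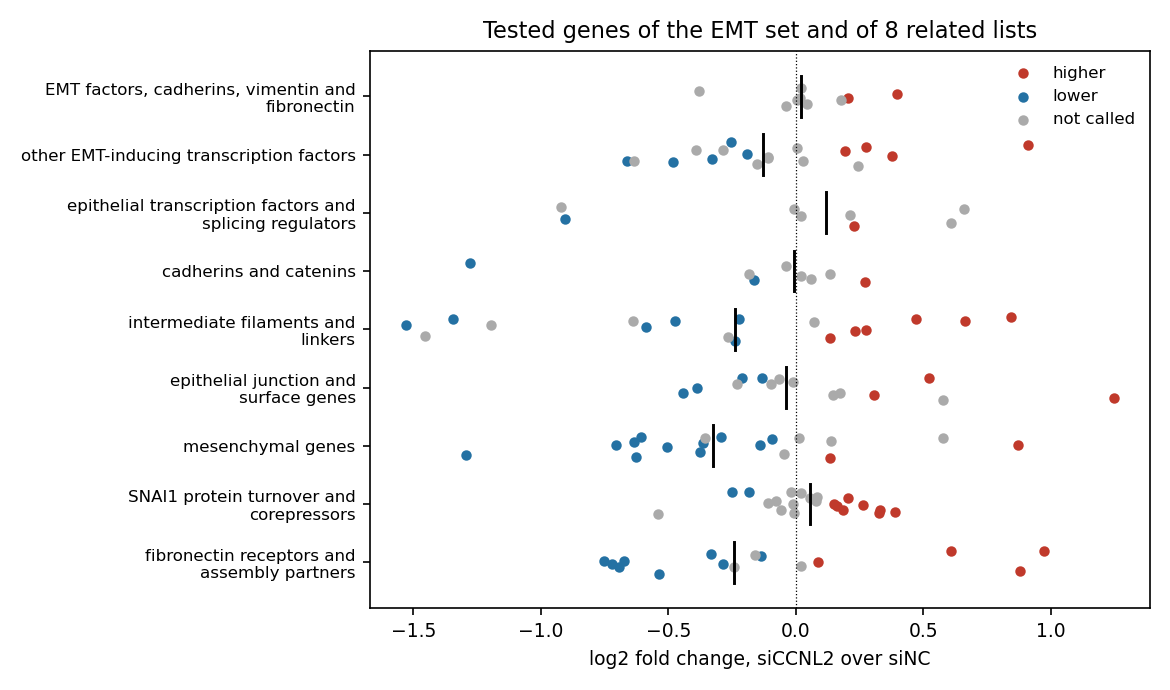
Log2 fold change of siCCNL2 over siNC (x axis) for each tested gene of the EMT set (top row, 9 genes) and of 8 related lists, coloured by call at an adjusted p under 0.05, with a black bar at each row's median and points spread vertically for legibility. The EMT set lies within -0.38 to 0.40, while intermediate filament genes reach -1.53 and AP1M2 reaches 1.25.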

How the data were processed

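RNA-seq libraries of HEY cells, 3 siCCNL2 and 3 siNC, were grouped by the labels. The authors deposited raw counts of reads for each gene, in whole numbers, and a TPM-like score per gene that sums to 1000000 over distinct names. The table repeats names joined to several Ensembl identifiers (62710 rows, 60835 names), and each name was used once. Per the submitters' processing notes, fastp 0.23.0, HISAT2, HTSeq 2.0.1 and GRCh38 were used, with no role or order given. The annotation release and strand setting are not given in the sources used here. Coordinates are those of the deposited table.

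Counts were tested with edgeR 4.0.16 (R 4.3.3): filterByExpr, TMM factors, quasi-likelihood test, no covariates, Benjamini-Hochberg adjustment over 15346 genes, called at 0.05. CPM values are TMM-scaled, and SEs were computed by dividing the absolute log2 fold change by the root of its F statistic. The 95% intervals use that SE and the t distribution, and all errors and floors cover these libraries and counting only. The fit was tested on simulated data with 50 genes changed at each fold. It recovered 54% at a fold of 1.25, 58% at 1.5, 84% at 2 and 98% at 3, with 13 false calls among 15052 genes. Many small changes were therefore missed in the simulation. It changed a far smaller share of genes than the 33.6% called here, and adjusted p-values depend on that share. The recovered shares therefore do not give the share of changes missed in these data. Alternatives used DESeq2 1.42.0 and limma 3.58.1 among others. Within a group, the variance between any pair of libraries was at least 2.2 times that of sampling noise (chi-square over its degrees of freedom).

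The members, lists, marker genes and tests were chosen with earlier results of these data known. Named list genes are up to 3 called genes per direction and list, by fold change, with at least 1 CPM in the higher group. All genes with counts that overlap a member, and the 3 tested genes nearest to each member in centred log2 CPM, are also named. The paralogue ratios were chosen after seeing the data. Promoter sequences are RefSeq's (GRCh38.p14), matched by symbol. A result for 1 named list gene is not reported here.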

Additional observations from a re-analysis of the deposited data

How the results depend on the processing

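CDH2 kept its direction and call under 17 of 18 alternatives (log2 fold change 0.19 to 0.23) and TWIST1 under 14 of 18 (0.30 to 0.49). The number of EMT genes called was 2, but 1 at an adjusted p under 0.01, 0 in a test against a fold of 1.2 and 1 to 3 without 1 library, lowest without siNC replicate 3. For genes called between siCCNL2 and siNC, the test against a fold of 1.2 gave 1435 in place of 5159. For pathway list genes called it gave 28 in place of 68. By list, it called 0 of 21 SNAI1 turnover and corepressor genes and 0 of 8 epithelial factors and splicing regulators. It called 1 of 8 cadherins and catenins and 9 of 18 mesenchymal genes. CCNL2 kept its call throughout (-0.49 to -0.41). Estimates near 0 changed sign without any call: ZEB1 with upper-quartile factors (-0.0021) and without 1 library (-0.0615 to 0.0776), ZEB2 with upper-quartile factors (-0.0122), with limma on log2(score + 1) (-0.0047) or log2(score + 0.1) (-0.0050) and without 1 library (-0.0055 to 0.0209), VIM without 1 library (-0.0245 to 0.0656) and TWIST2 without 1 library (-0.0752 to 0.0195). The cause was not tested. Leaving out 1 library moved the log2 difference of the TWIST ratio between 0.29 and 0.56, of the SNAI ratio between 0.50 and 0.60 and of the ZEB ratio between -0.06 and 0.06.

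Same-numbered libraries deviated together only weakly (r = 0.0432, 0.023 and 0.0257), so the number was not taken as a pairing, though each siCCNL2 library correlated best with its own number. With the replicate block, 2 EMT genes and 70 list genes were called, and CDH2 (0.21, adjusted p = 4.14e-04) and TWIST1 (0.40, adjusted p = 0.016) were among them. Depth limits CDH1 and, with 26 to 51 counts per library, SNAI1.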

Other observations

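The basal keratin genes KRT5 and KRT14, chosen after their values were seen, varied together with KRT17 between libraries of 1 group. KRT5 had 59, 1 and 3 counts in siCCNL2 libraries and 44, 47 and 52 counts in siNC libraries. KRT14 had 25, 0 and 1 counts in siCCNL2 libraries and 36, 15 and 21 counts in siNC libraries. In both genes siCCNL2 replicate 1 stood within or above the siNC range while siCCNL2 replicates 2 and 3 stood near 0, and neither gene was called (log2 fold change -1.20 and adjusted p = 0.0792 for KRT5, -1.46 and 0.068 for KRT14 by edgeR's quasi-likelihood test). Both were called lower in 4 of 18 alternatives, checked after seeing the data. Without siCCNL2 replicate 1 the log2 fold change was -4.34 for KRT5 (adjusted p = 7.47e-08) and -5.13 for KRT14 (2.37e-05). With the replicate block the adjusted p was 0.0168 for KRT5 and 0.00962 for KRT14, with limma-voom 0.0023 for both, and with no count filter 2.40e-04 for KRT5 and 0.00346 for KRT14. Over all 18 the adjusted p reached 0.518 for KRT5 and 0.504 for KRT14. EPCAM, an epithelial adhesion gene, stood at 2.91, 2.46 and 2.8 CPM in siCCNL2 and at 1.36, 1.96 and 2.2 CPM in siNC, without overlap and without a call (log2 fold change 0.58, adjusted p = 0.0856).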
